A study of Homo sapiens with 160 samples.

Results

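BEAS-2B cells that received only vehicle were followed over 18 h to describe how their RNA moved with time in the absence of an added agent. The libraries were taken by their label, vehicle, and by their time, and each later time was set against 1 h within replicate numbers. BEAS-2B is an immortalised human bronchial epithelial line, labelled WT, and all of its cells had been grown to confluence with serum and then kept overnight without serum before treatment. The labels do not say what the vehicle was. 19 of the 150 libraries with values used here were vehicle libraries, with 5 each at 1 h, 2 h and 6 h (replicates 1 to 5) and 4 at 18 h (replicates 2 to 5). Replicate 1 at 18 h was not analysed here. A further 20 libraries of cells given carbachol at 10 µM, an agonist of acetylcholine receptors, served as a time course that shares no library with the vehicle cells, with 5 at each time. The other agents of the study, mometasone and indacaterol, were not given to any of these cells.

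Serum holds growth factors, and cells kept without it tend to leave the division cycle. Handling and fresh medium can set off immediate early genes, which are transcribed within minutes of a stimulus and whose RNA is short-lived. Cultured cells also carry a circadian clock, in which the proteins CLOCK and BMAL1 activate genes through a DNA motif called the E-box, and the PER, CRY and REV-ERB proteins encoded by such genes repress it in turn. A serum or medium change can set the phase of that clock across a culture.

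The 4 promoters below are shown because they belong to genes that changed at 6 h and hold a motif known from the clock or the heat shock response. Each run is the 250 bases before the RefSeq transcript start on GRCh38.p14, written 5′ to 3′ along the gene's strand. In CIART and TEF the capitals mark the E-box CACGTG, searched on both strands, and in DNAJA1 and CHORDC1 they mark a heat shock element, searched as GAANNTTC on both strands.
CIART, chr1:150282304-150282553, plus strand: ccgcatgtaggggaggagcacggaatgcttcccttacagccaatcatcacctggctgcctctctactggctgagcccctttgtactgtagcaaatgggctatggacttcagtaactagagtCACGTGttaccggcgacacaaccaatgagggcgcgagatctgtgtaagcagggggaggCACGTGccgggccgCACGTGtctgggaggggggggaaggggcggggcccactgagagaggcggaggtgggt
TEF, chr22:41367205-41367454, plus strand: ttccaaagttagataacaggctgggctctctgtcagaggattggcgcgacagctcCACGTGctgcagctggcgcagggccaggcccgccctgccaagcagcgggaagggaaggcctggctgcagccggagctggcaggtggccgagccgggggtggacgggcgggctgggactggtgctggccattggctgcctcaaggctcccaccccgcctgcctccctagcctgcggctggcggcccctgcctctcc
DNAJA1, chr9:33025023-33025272, plus strand: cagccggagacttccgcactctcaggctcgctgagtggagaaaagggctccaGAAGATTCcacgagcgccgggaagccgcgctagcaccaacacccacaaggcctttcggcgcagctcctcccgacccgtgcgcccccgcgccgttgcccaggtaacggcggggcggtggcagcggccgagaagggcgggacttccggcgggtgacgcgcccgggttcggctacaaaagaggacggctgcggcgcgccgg
CHORDC1, chr11:90223050-90223299, minus strand: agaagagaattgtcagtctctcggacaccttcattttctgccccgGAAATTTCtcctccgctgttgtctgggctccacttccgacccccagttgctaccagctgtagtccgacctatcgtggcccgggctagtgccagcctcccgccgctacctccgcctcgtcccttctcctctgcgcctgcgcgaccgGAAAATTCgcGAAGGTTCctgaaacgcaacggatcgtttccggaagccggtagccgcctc

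CIART had 3 E-boxes in this window and TEF had 1, whereas DBP and NR1D1, which fell at the same time, had 0 in theirs. CACGTG was in 8.83% of the 10248 promoters of tested genes that matched by symbol and in 6.49% of all 27305 promoters. It was in 2 of the 9 matched clock repressor promoters, in 3 of the 6 promoters of clock output factors and in 0 of the 5 promoters of clock activators. GAANNTTC was in 4.05% of the promoters of tested genes, and in 7 of the 15 promoters of the heat shock list. A match is a string of letters, and binding was not measured.

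The deposited values are a normalised signal, 1 per gene and library. Vehicle columns summed to between 894486 and 1426180, with a median of 956478, and 12521 to 12982 genes were at a value of 1 or more. Sequencing depth is unknown. Mitochondrially encoded genes made up 8.28% to 15.9% of the summed values of a vehicle library. Whether replicates were separate cultures is not stated, and each p-value then reflects only how much these libraries vary, which may be technical. 2 sequencing kits were used, with no record of which library used which. A change is the difference of log2(value + 1), which understates the change of low genes, and a gene is called where limma's p-value, adjusted by Benjamini-Hochberg over the 13369 genes tested, is below 0.05. In bulk RNA, fewer cells of a type and less RNA per cell cannot be told apart.

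The libraries carried some epithelial and some mesenchymal transcripts. KRT8 and KRT18, keratins of simple epithelium, averaged 343 and 444 over the 19 vehicle libraries. EPCAM, an epithelial adhesion protein, averaged 0.324, and the airway basal cell markers KRT5 and TP63 averaged 0.295 and 0.192. The mesenchymal marker VIM averaged 1612 and COL1A1, a fibrillar collagen, averaged 683. Of the same list, PDGFRB averaged 103 and CDH2 41.0. The other members were low, with DCN at 1.71, COL1A2 at 1.71, COL3A1 at 1.30, PDGFRA at 0.231 and LUM at 0.0489. Of the 6 secretory airway markers, none was above 0.67 in any vehicle library, and the summed level of the 6 endothelial markers lay between 0.35 and 1.3.

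Several libraries decided how many genes were called, so the counts in this report have a wide margin. The replicate 1 library at 1 h moved the 6 h count most, and the 18 h libraries of replicates 2 and 5 moved the 18 h count most, to 21 and 705. On a score made from the 3292 genes that changed between 1 and 6 h in carbachol cells, the 2 h library minus the 1 h library was positive in replicates 2 to 5, whereas in replicate 1 the 2 h library (0.13) lay below the 1 h library (0.56). The replicate 5 libraries lay lowest at every time, at -0.87, -0.61, 0.06 and -0.59 at 1, 2, 6 and 18 h, on the scale of differences from the mean at 1 h. The score genes were picked in cells given carbachol, so the score may also follow the response to carbachol. The mitochondrial share was 12.7% at 1 h and 15.9% at 2 h in replicate 1, and 8.28% and 9.42% in replicate 3, and it fell in the others. In the carbachol library of replicate 1 at 1 h it was 22.4%. The part of either in the score was not tested. Without the replicate 1 library at 1 h, 1201 genes were called at 6 h and 606 at 18 h, against 184 and 217 with it, and all 184 and 217 stayed among them. No library was relabelled or left out of the main values.

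**Figure D1:**
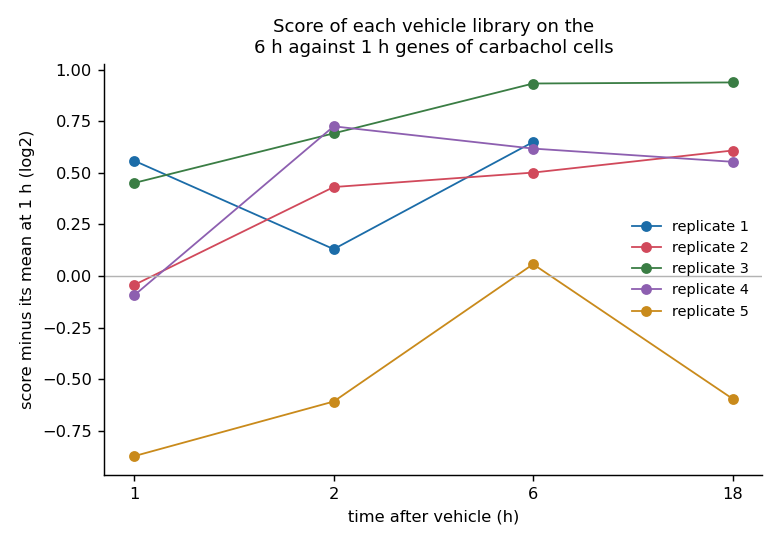
Score of each vehicle library at 1, 2, 6 and 18 h, as the mean log2(value + 1) of the 1765 genes higher at 6 h than at 1 h in carbachol cells minus that of the 1527 genes lower there, relative to the mean of the 1 h libraries. Lines join the libraries of a replicate number. The replicate 1 line starts at 0.56 at 1 h and drops to 0.13 at 2 h, while the others climb between these times.

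At 2 h few genes passed the test. 3 genes were called against 1 h, or 0.0224% of those tested, with 2 higher (0.015%) and 1 lower (0.00748%), and 1327 genes had an unadjusted p below 0.05. NAB2, whose protein binds EGR factors and represses their targets, had 51.2, 52.1, 31.3, 42.6 and 38.1 at 2 h in replicates 1 to 5, against 17.2, 28.9, 18.9, 29.1 and 16.7 at 1 h. Every 2 h library lay above every 1 h library, and the gene rose by 0.95 ± 0.13 on the log2 scale (SE, limma adjusted p = 0.0231). By 6 h it had 19.97 to 22.33, within the 1 h range. BDNF, a secreted neurotrophin, had 8.25, 8.20, 8.97, 7.55 and 7.66 at 2 h, against 13.4, 11.4, 16.0, 10.0 and 13.2 at 1 h. Its ranges did not overlap either, and it fell by 0.58 ± 0.09 (SE, limma adjusted p = 0.0396) before 10.3 to 11.8 at 6 h. FBXO31, a subunit of a ubiquitin ligase, rose by 0.52 ± 0.08 (limma adjusted p = 0.0396), to 9.71 to 15.0 at 2 h against 6.73 to 10.5 at 1 h, with overlapping ranges. Some lists leaned one way at 2 h with 0 members called by limma: 21 of 23 immediate early genes (median log2 change -0.29), 25 of 25 cytosolic ribosomal protein genes (-0.24) and 22 of 25 glycolysis and hypoxia genes (-0.22) were negative, beside a median of 0.01 over all genes. Others leaned upwards, also with 0 called, among them fatty acid synthesis (10 of 10 positive, 0.14) and cholesterol synthesis and uptake (21 of 24, 0.20). The 3 calls were fragile. With each replicate number left out in turn, NAB2 was called in 2 of 5 fits, BDNF in 1 and FBXO31 in 0, and without the 1 h library of replicate 1 the count was 17.

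At 6 h, 6 of 23 immediate early genes had fallen, 4 of 15 heat shock genes had risen, CCND1 had fallen, and 5 clock genes had changed. 184 genes were called against 1 h, which is 1.38% of those tested, with 80 higher (0.598%) and 104 lower (0.778%). Their changes were modest: 2 of those higher (0.015% of tested genes) and 5 of those lower (0.0374%) reached 2-fold. In 177 of the 184 every replicate pair moved the same way, and in 63 the ranges of the 6 h and 1 h libraries did not overlap. Both counts come from genes picked by a test on these same pairs, so they are not separate evidence. The largest rises and falls named below were also kept only where every pair agreed. Without the replicate block, which the labels do not establish as a pairing, 8 genes were called, and 32 with only the times compared in the fit. The split of calls depended on scaling: with columns scaled to equal sums after leaving out mitochondrially encoded genes it was 184 higher and 47 lower. The count depended on the libraries as well. Leaving out one of the 6 h libraries gave 89, 88, 63, 67 and 40 genes for replicates 1 to 5, leaving out one of the 1 h libraries gave 1201, 46, 59, 88 and 44, and without the 2 h library of replicate 2 or 5, or the 18 h library of replicate 2, it was 119, 116 or 122.

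Several immediate early genes and 1 of 3 tested EGF receptor ligands were among the falls at 6 h. Of 23 tested immediate early genes, 6 fell and 1 rose, with a median log2 change of -0.33 against 0.00 over all genes. With columns scaled to equal sums without mitochondrially encoded genes, 3 fell and 1 rose. NR4A1, an orphan nuclear receptor gene induced within minutes of a stimulus, had 9.44, 15.9, 13.9, 12.1 and 7.93 at 1 h, 13.5, 20.6, 14.7, 10.9 and 8.97 in the 2 h libraries, 5.87, 8.40, 7.84, 5.82 and 4.79 at 6 h, and 7.83, 4.85, 9.30 and 6.02 at 18 h. All 5 pairs were lower at 6 h, although the highest 6 h library lay above the lowest 1 h library, and the log2 change was -0.75 ± 0.15 (SE, limma adjusted p = 0.0235). HBEGF, a ligand of the EGF receptor, had 3.24, 3.27, 3.92, 3.19 and 3.56 at 6 h, against 7.90, 7.25, 8.86, 6.15 and 5.22 at 1 h. Its ranges did not overlap, it fell by 0.85 ± 0.14 at 6 h (limma adjusted p = 0.0109), and it was still lower at 18 h, at 2.62 to 4.10, with a log2 change of -0.82 ± 0.15 (limma adjusted p = 0.0199). The other EGF receptor ligands tested, TGFA and AREG, were not called, with log2 changes at 6 h of 0.31 and 0.01.

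KLF10, a zinc finger repressor induced by TGF-β, had 6.30, 6.99, 9.01, 6.69 and 7.43 at 6 h, against 27.4, 14.4, 21.6, 9.20 and 14.8 at 1 h. Every 6 h library was below every 1 h library, and the fall of 1.08 ± 0.18 on the log2 scale (SE, limma adjusted p = 0.0117) was the largest of the immediate early list among those called. EGR1, the textbook immediate early transcription factor, had 123, 23.0, 76.8, 14.2 and 53.5 at 1 h. At 6 h it had 24.3, 17.4, 9.83, 13.6 and 21.9. Its 1 h libraries were so spread that the difference of -1.37 ± 0.35 was not called (limma adjusted p = 0.0645). GADD45A, a stress-induced growth arrest gene, lay between 56.4 and 72.8 at 6 h and between 89.2 and 147 at 1 h. Those ranges were apart, with a log2 change of -0.81 ± 0.13 at 6 h (limma adjusted p = 0.00947) and -0.80 ± 0.14 at 18 h (adjusted p = 0.0158). KLF2 (log2 change -0.80), IER2 (-0.59), IER3 (-0.55), FOSL1 (-0.48) and the MAP kinase phosphatase gene DUSP5 (-0.55) also fell at 6 h, as did the matrix and cytoskeleton genes CCN2 (-0.93) and ANKRD1 (-0.60), which YAP and TEAD drive, and the cytokine gene LIF (-0.79). The YAP and TEAD targets did not fall as a list: of 16 tested, 2 were called lower, 7 were positive and 9 negative, and the median was -0.08. BTG2, an antiproliferative gene that is also an immediate early gene, went the other way, at 10.2 to 11.97 at 6 h and 11.1 to 13.4 at 18 h against 6.03 to 8.38 at 1 h (log2 change 0.57 ± 0.09, limma adjusted p = 0.0114, and 0.68 ± 0.10, limma adjusted p = 0.0048).

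MIDN, which encodes a protein that carries immediate early proteins to the proteasome, had 51.7, 49.2, 53.4, 46.4 and 35.5 at 1 h, 46.7, 60.0, 53.4, 45.7 and 31.2 in the 2 h libraries, 28.6, 28.9, 27.2, 21.7 and 25.5 at 6 h, and 27.9, 26.5, 24.2 and 21.8 at 18 h. It was lower in every 6 h and 18 h library than in any 1 h library. Its log2 change was -0.81 ± 0.10 at 6 h (SE, limma adjusted p = 0.00128) and -0.86 ± 0.11 at 18 h (adjusted p = 0.00111), and both calls held whichever replicate number was left out.

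CDKN1B, CCNG2 and PNRC1 rose while cyclin D1 RNA fell. CCND1, which encodes cyclin D1, the growth-factor-dependent cyclin of G1, had 49.4, 37.4, 36.8, 41.2 and 32.7 at 1 h, 61.5, 61.0, 72.8, 64.0 and 40.0 in the 2 h libraries, 22.7, 20.5, 27.8, 19.8 and 21.1 at 6 h, and 19.5, 20.04, 15.9 and 19.3 at 18 h. Its level at 2 h was not called against 1 h (log2 change 0.58 ± 0.12, limma adjusted p = 0.122). At 6 h and at 18 h it was below every 1 h library, with log2 changes of -0.79 ± 0.12 (adjusted p = 0.00537) and -0.997 ± 0.13 (adjusted p = 0.00158). Against 2 h, its fall at 6 h was 1.36 ± 0.12 on the log2 scale (limma adjusted p = 3.03e-05).

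CDKN1B, the gene of the cyclin-dependent kinase inhibitor p27, had 102, 93.0, 137, 94.3 and 94.4 at 6 h, against 93.8, 66.3, 85.9, 69.7 and 51.2 at 1 h. All 5 pairs rose, with a narrow overlap of the ranges, and the log2 change was 0.51 ± 0.09 at 6 h (SE, limma adjusted p = 0.0143) and 0.50 ± 0.10 at 18 h (adjusted p = 0.0223). CCNG2, a cyclin of quiescent cells and a target of FOXO factors, had 45.4, 47.8, 75.9, 50.7 and 25.9 at 6 h, against 29.7, 24.0, 46.2, 22.5 and 7.41 at 1 h. Replicate 5 was lowest at each time, so the ranges overlapped although all pairs rose, by 1.02 ± 0.18 at 6 h (limma adjusted p = 0.0125) and by 0.97 ± 0.19 at 18 h (adjusted p = 0.0223). PNRC1, a nuclear receptor coactivator gene, had 62.9, 82.9, 93.6, 74.2 and 52.0 at 6 h, against 39.7, 41.0, 58.9, 40.2 and 17.9 at 1 h. It rose in all pairs too, by 0.93 ± 0.13 (limma adjusted p = 0.00331). Among the 11 tested D cyclins and kinase inhibitors 2 rose and 1 fell at 6 h, and 3 rose and 1 fell at 18 h. The levels of the 27 tested mitosis genes did not follow this direction: at 6 h CDK1 (log2 change 0.38) and CENPA (0.33) rose and at 18 h CDK1 (0.43) and TOP2A (0.53) rose, 0 fell, and the median was 0.19 at 6 h and 0.20 at 18 h, beside 0.00 and 0.05 over all genes. Of the 23 tested replication genes of G1/S, 0 were called at either time by limma.

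**Figure D2:**
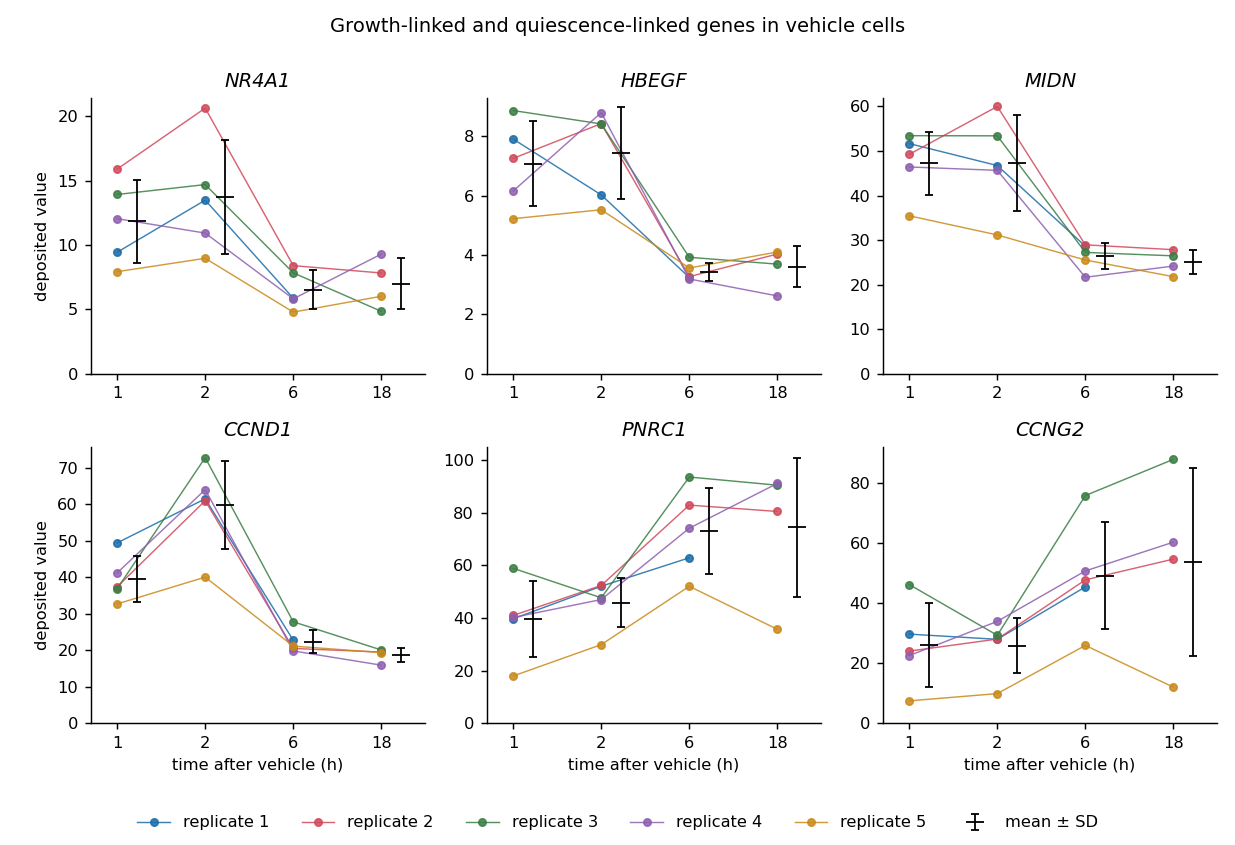
Deposited values of 6 genes in vehicle cells at 1, 2, 6 and 18 h, with a line for each replicate number and the mean ± SD beside the points. NR4A1, HBEGF, MIDN and CCND1 are lower at 6 and 18 h than at 1 h, and PNRC1 and CCNG2 are higher, with replicate 5 below the others for the last of these at every time.

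Some heat shock genes rose at 6 h. Of 15 tested, CHORDC1, DNAJA1, HSPA1A and HSPA1B rose and 0 fell, with a median log2 change of 0.17. CHORDC1, whose protein works with the chaperone HSP90, had 43.2, 35.8, 46.1, 37.5 and 28.0 at 6 h, against 30.4, 17.8, 21.5, 24.3 and 15.9 at 1 h. All 5 pairs rose and only the replicate 5 library at 6 h fell inside the 1 h range, with a log2 change of 0.78 ± 0.15 (SE, limma adjusted p = 0.0174). DNAJA1, a co-chaperone of HSP70, had 199, 178, 187, 165 and 199 at 6 h, against 158, 125, 106, 131 and 159 at 1 h. Its ranges were apart at 6 h (log2 change 0.46 ± 0.10, limma adjusted p = 0.0259), and at 18 h it lay at 130.03 to 175 and was not called (0.15 ± 0.10, adjusted p = 0.418). HSPA1A and HSPA1B encode near-identical HSP70 proteins, so reads may be shared between them. Their log2 changes at 6 h were 0.46 ± 0.11 and 0.66 ± 0.10 (limma adjusted p = 0.0453 and 0.00502). None of the 15 was called at 18 h with all libraries in the fit, whereas CHORDC1 and HSPA1A were called there without the 1 h library of replicate 1.

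DDIT4 rose and ATF4 fell at 6 h. DDIT4, an inhibitor of mTORC1 signalling, had 32.2, 70.8, 90.7, 79.3 and 59.0 at 6 h, against 26.8, 28.8, 20.5, 36.1 and 31.1 at 1 h. Replicate 1 was the only 6 h library inside the 1 h range. The log2 change was 1.13 ± 0.21 (SE, limma adjusted p = 0.017). ATF4, the transcription factor of the amino acid response, had 154, 175, 176, 153 and 188 at 6 h, against 215, 243, 244, 262 and 289 at 1 h. It was lower in every 6 h library, by 0.56 ± 0.08 (limma adjusted p = 0.0051), while of its 23 listed target and pathway genes 2 rose and 1, ATF4 itself, fell.

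Transcripts made in mitochondria were called lower for 2 of 13 genes at 6 h. MT-ND1 averaged 3352 ± 1088 at 6 h and 5108 ± 2144 at 1 h (SD, n = 5 each), and it and MT-ND2 were the 2 called of 13, with log2 changes of -0.58 and -0.49 and a list median of -0.37. Their share of all values moves with the scaling of a column. With that share as a covariate, 32 genes were called at 6 h in place of 184, of which 25 were among the 184, and its part in the other changes was not tested. SRSF5, a splicing factor gene, had 414, 371, 457, 445 and 529 at 1 h, 389, 396, 496, 386 and 507 in the 2 h libraries, 192, 201, 256, 241 and 199 at 6 h, and 269.9, 469, 357 and 321 at 18 h. It was below every 1 h library at 6 h (log2 change -1.02 ± 0.10, limma adjusted p = 0.000177) and higher again at 18 h than at 6 h (0.65 ± 0.11, adjusted p = 0.0429). Its fall at 6 h held under every setting tried for named genes, with adjusted p between 7.4e-05 and 0.0146.

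Without the 1 h library of replicate 1, added after the data were seen, several gene groups counted more members at 6 h. The list of cholesterol synthesis and uptake genes had 8 of 24 higher, among them INSIG1 (log2 change 0.51), HMGCS1 (0.48), CYP51A1 (0.48) and SQLE (0.42). The mitochondrially encoded list had 10 of 13 lower, the mitosis list 6 of 27 higher, the heat shock list 6 of 15 higher and the immediate early list 8 lower and 2 higher of 23. These counts stand against 1201 calls over all 13369 tested genes in that fit, with 601 higher and 600 lower. Leaving out the 1 h library of replicate 2, 3, 4 or 5 gave 46, 59, 88 or 44 calls at 6 h. The lists were not counted in those fits.

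Part of the clock was lower at 6 h and back near its 1 h level at 18 h. Of the 6 tested clock output factors, DBP and TEF fell and NFIL3 rose at 6 h, and of the 10 clock repressors CIART and NR1D1 fell. DBP, a PAR-domain transcription factor and a direct output of the clock, had 10.9, 16.6, 13.5, 10.3 and 25.7 at 1 h, 11.4, 12.2, 9.43, 8.58 and 21.3 in the 2 h libraries, 7.89, 10.7, 5.37, 7.93 and 15.7 at 6 h, and 14.0, 12.4, 17.0 and 25.4 at 18 h. Each replicate was lower at 6 h than at 1 h, and replicate 5 was highest throughout, so that the ranges overlapped. The log2 change at 6 h was -0.64 ± 0.13 (SE, limma adjusted p = 0.0235) and at 18 h 0.13 ± 0.14 (adjusted p = 0.629).

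CIART, a repressor of CLOCK and BMAL1 with 3 E-boxes in the promoter printed above, had 6.55, 12.8, 9.39, 12.6 and 10.5 at 1 h, 11.2, 10.6, 13.6, 9.98 and 11.6 in the 2 h libraries, 4.78, 5.90, 7.40, 6.24 and 6.45 at 6 h, and 10.2, 13.8, 11.2 and 8.79 at 18 h. The 6 h libraries lay below all 2 h and 18 h libraries and below every 1 h library except that of replicate 1. CIART fell by 0.65 ± 0.13 at 6 h against 1 h (SE, limma adjusted p = 0.0259) and by 0.80 ± 0.13 against 2 h (adjusted p = 0.00836). TEF, a PAR-domain factor like DBP, had 4.74, 4.46, 3.05, 4.25 and 3.65 at 6 h, against 5.84, 7.28, 8.20, 6.02 and 5.19 at 1 h. Its ranges did not overlap at 6 h, with a log2 change of -0.57 ± 0.12 (limma adjusted p = 0.0317), and its 18 h libraries had 7.50, 7.64, 6.04 and 4.57. NR1D1, the gene of the repressor REV-ERBα, had 1.53 to 3.19 at 6 h and 3.34 to 4.69 at 1 h, ranges that were apart (log2 change -0.50 ± 0.12, limma adjusted p = 0.0479). NFIL3, which represses at the sites that DBP and TEF activate, had 12.8 to 17.5 at 6 h and 8.42 to 11.7 at 1 h, also apart, and it rose by 0.46 ± 0.10 (adjusted p = 0.0411). With columns scaled to equal sums without mitochondrially encoded genes, NFIL3 was the only clock gene called at 6 h, and without the replicate block 0 were. On leaving out each replicate number in turn, DBP was called in 2 of 5 fits, CIART, TEF and NFIL3 in 1 and NR1D1 in 0.

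None of the clock members was called at 18 h against 1 h. The steps from 6 h to 18 h were positive for DBP (0.77 ± 0.14), PER1 (0.74 ± 0.19), CIART (0.67 ± 0.14), TEF (0.55 ± 0.13) and NR1D1 (0.46 ± 0.13) on the log2 scale, but their limma adjusted p-values of 0.0759, 0.228, 0.132, 0.179 and 0.246 missed the threshold. PER1, a core repressor, had 11.4, 23.8, 22.3, 22.2 and 13.2 at 1 h, 20.4, 19.7, 19.5, 15.0 and 25.4 in the 2 h libraries, 16.6, 15.8, 13.2, 14.5 and 15.6 at 6 h, and 25.5, 24.5, 32.6 and 24.4 at 18 h. Its 18 h libraries were above every 6 h and 1 h library, and its log2 change against 1 h was 0.52 ± 0.19 (adjusted p = 0.148). The remaining repressors had log2 changes at 6 h between -0.24 (CSNK1D) and 0.42 (CRY1), and the 5 activators between -0.13 (RORA) and 0.32 (ARNTL2), with 0 called. Without the 1 h library of replicate 1, CRY1 (0.53), BHLHE40 (0.66) and ARNTL2 (0.47) were called higher and CSNK1D (-0.31) lower at 6 h, beside the 5 called with all libraries. That fit, added after the data were seen, called 601 of the 13369 tested genes higher and 600 lower. With 4 times, of which none lies between 6 and 18 h, a period cannot be given.

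**Figure D3:**
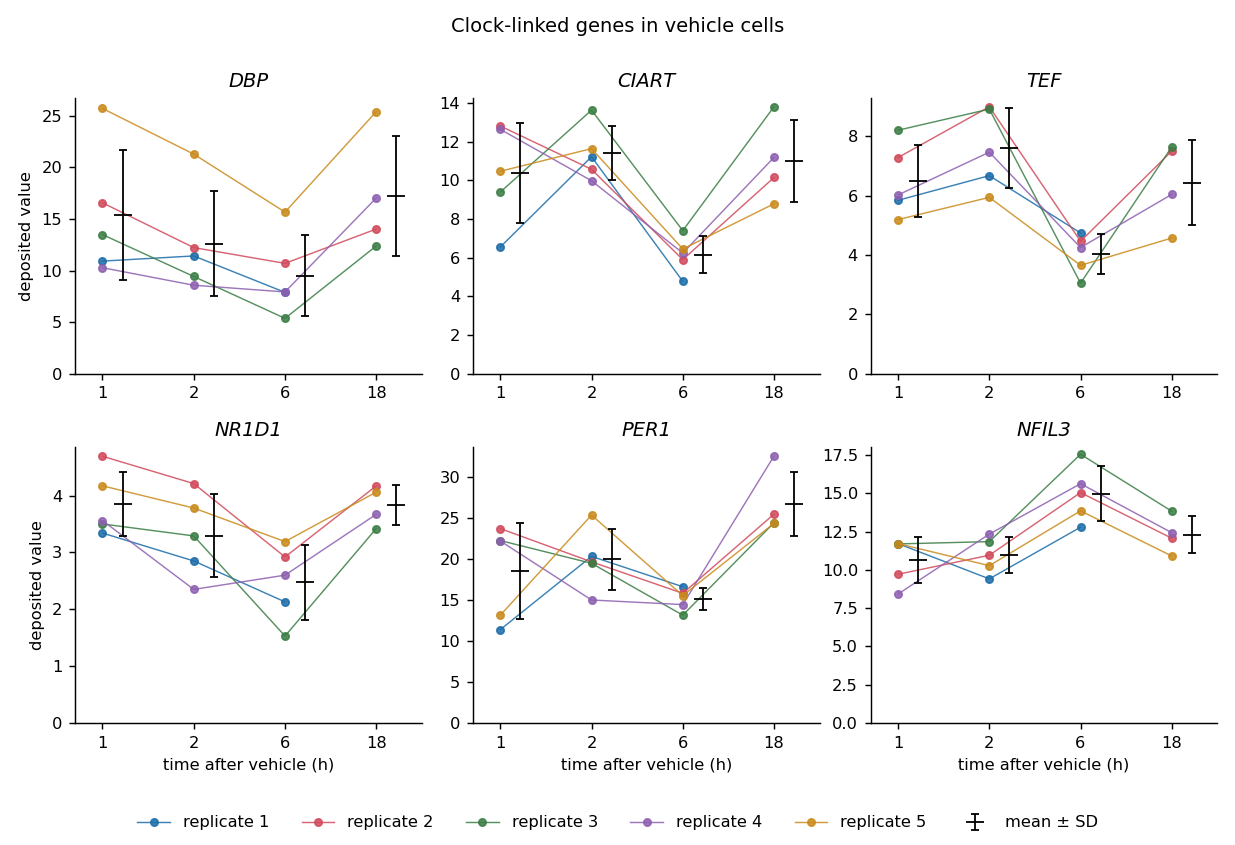
Deposited values of 6 clock-linked genes in vehicle cells at 1, 2, 6 and 18 h, with a line for each replicate number and the mean ± SD beside the points. DBP, CIART, TEF and NR1D1 dip at 6 h, NFIL3 peaks at 6 h, and PER1 lies at 24.4 to 32.6 at 18 h, above its 6 h libraries at 13.2 to 16.6.

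At 18 h HBEGF, NR4A1, MIDN, CCND1 and GADD45A were still lower than at 1 h, and KRT7, KRT8, NPPB, TINAGL1 and SLC7A5 were lower too. Of the 23 immediate early genes 2 were called lower there, and KLF10 (log2 change -0.62, limma adjusted p = 0.1) and KLF2 (-0.77, adjusted p = 0.0605) were not. 217 genes were called against 1 h, which is 1.62% of those tested, with 130 higher (0.972%) and 87 lower (0.651%), and 4 of those higher (0.0299% of tested genes) and 5 of those lower (0.0374%) reached 2-fold. In 216 of the 217 every pair moved the same way, and in 45 the ranges did not overlap. As at 6 h, these counts are not evidence apart from the calls. Without the replicate block 1 gene was called, CCND1, and 7 with only the times compared in the fit. The split turned with the scaling, at 81 higher and 133 lower with columns scaled by their median ratio to the geometric mean. Leaving out one of the 18 h libraries gave 21, 32, 26 and 705 genes for replicates 2 to 5. The 1 h libraries of replicates 1, 2, 4 and 5 moved the count by over 1.5 times, to 606, 26, 43 and 26, as did the 2 h libraries of replicates 1, 2, 3 and 5 (362, 129, 143 and 130) and the 6 h libraries of replicates 1, 2 and 5 (119, 131 and 574).

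TXNIP, which binds thioredoxin and whose transcription follows glucose, had 265, 191, 300.2, 133 and 216 at 1 h, 176, 170.3, 175, 179 and 148 in the 2 h libraries, 320.4, 413, 248, 351 and 364 at 6 h, and 557, 446, 757 and 284 at 18 h. Of the 18 h libraries, replicate 5 alone lay inside the 1 h range. The gene rose by 1.20 ± 0.24 at 18 h (SE, limma adjusted p = 0.0236) and was not called at 6 h (0.65 ± 0.22, adjusted p = 0.135). GPNMB, a transmembrane glycoprotein gene, had 65.8, 94.7, 61.7 and 62.8 at 18 h, against 44.6, 41.2, 57.2, 30.4 and 32.4 at 1 h. Its ranges were apart and it rose by 0.82 ± 0.10 (limma adjusted p = 0.00104). JAG1, a Notch ligand gene (log2 change 0.77), COL5A1, a fibrillar collagen gene (0.42), STAT2 (0.40) and the endoplasmic reticulum co-chaperone gene DNAJB9 (0.55) rose as well, each as the only member called higher of a list of 12, 23, 21 and 16 tested genes in that order, where 0.972% of all tested genes were called higher.

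KRT7, KRT8 and KRT18, keratins of simple epithelium, fell at 18 h. KRT7 had 2.86, 2.81, 2.02 and 9.94 at 18 h in replicates 2 to 5, against 20.7, 6.20, 4.31, 12.6 and 33.2 at 1 h in replicates 1 to 5. Replicates 3 and 5 at 1 h show how far the baseline varied, and all 4 pairs fell, by 1.29 ± 0.23 on the log2 scale (SE, limma adjusted p = 0.0188). KRT8 had 229.6, 197, 188 and 378 at 18 h, against 338, 418, 246, 438 and 548 at 1 h, a log2 change of -0.72 ± 0.12 (limma adjusted p = 0.0158) with overlapping ranges. With KRT18 (-0.55 ± 0.13, adjusted p = 0.0413), 3 of the 7 tested keratins fell and 0 rose at 18 h, with a list median of -0.52 beside 0.05 over all genes. At 6 h KRT17, a keratin of stressed and basal epithelium, was the only keratin called (-0.57 ± 0.13, limma adjusted p = 0.0365). The general epithelial markers include KRT8 and KRT18. Their summed level lay between 487 and 924 at 18 h and between 578 and 1311 at 1 h. The sum of the 9 mesenchymal markers, most of it VIM and COL1A1, lay between 2507 and 2678 at 18 h. Its 1 h range of 2184 to 2849 held these values. The part of cell composition in the keratin result was not tested.

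Among the largest falls at 18 h were NPPB, TINAGL1 and SEMA7A. NPPB, which encodes the natriuretic peptide BNP, had 94.9, 205, 139, 184 and 256 at 1 h, 88.8, 148, 93.2, 131 and 167 in the 2 h libraries, 52.0, 112, 103, 93.3 and 107 at 6 h, and 52.3, 80.1, 78.0 and 79.5 at 18 h. It was lower in every 18 h library than in any 1 h library, and it fell by 1.38 ± 0.16 on the log2 scale (SE, limma adjusted p = 0.00091). TINAGL1, a secreted matrix-associated glycoprotein gene, had 15.9, 10.8, 13.8 and 10.6 at 18 h, against 25.0, 31.8, 24.3, 32.8 and 19.6 at 1 h. Its ranges were apart, the fall was 1.05 ± 0.11 (limma adjusted p = 0.000512), and it was lower at 18 h than at 6 h as well (-0.67 ± 0.11, adjusted p = 0.0429). SEMA7A, a membrane-anchored semaphorin gene, had 4.87, 4.87, 4.66 and 3.41 at 18 h and 6.58 to 10.6 at 1 h, a fall of 0.95 ± 0.12 (limma adjusted p = 0.00104). The actin-binding gene TAGLN (log2 change -0.90) and the cytokine gene CLCF1 (-0.82) fell too. The complement gene C4A fell by 1.12, but it has a near-identical copy, C4B, with which it may share reads.

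SLC7A5 and SLC3A2 encode the light and heavy chains of a carrier of large neutral amino acids. SLC7A5 had 178, 129, 152, 159 and 157 at 1 h, 263, 213, 206, 191 and 242 in the 2 h libraries, 196, 153, 227, 144 and 207 at 6 h, and 90.0, 96.3, 72.2 and 111 at 18 h. The 18 h libraries lay below all others, with a log2 change of -0.70 ± 0.10 against 1 h (SE, limma adjusted p = 0.0048) and of -0.94 ± 0.10 against 6 h (adjusted p = 0.00102). SLC3A2 had 169, 139, 173, 137 and 188 at 6 h, against 139, 95.9, 108, 111 and 169 at 1 h, and rose by 0.39 ± 0.09 (limma adjusted p = 0.0425). At 18 h it had 92.1, 97.1, 87.5 and 147 and was lower than at 6 h by 0.60 ± 0.10 (adjusted p = 0.0429). The ribosome biogenesis genes RRS1 (-0.87) and PPAN (-0.63) fell at 18 h, 2 of 22 tested, with a list median of -0.12.

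CCND1, HBEGF, NR4A1 and MIDN fell between 2 h and 6 h, and few genes were called at 18 h against 6 h. The immediate early list as a whole had a median log2 change of -0.29 at 2 h against 1 h, with 21 of 23 negative and 0 called, and of 0.04 at 6 h against 2 h. 108 genes, or 0.808%, were called at 6 h against 2 h, with 32 higher (0.239%) and 76 lower (0.568%), and the count lay between 31 and 159 with single libraries left out. Besides CCND1 and CIART they held MIDN (log2 change -0.80), SEMA7A (-0.83), SRSF5 (-0.99) and NAB2 (-0.98), all lower at 6 h, and ANKRD37, a gene induced by low oxygen, which was higher (1.09). 5 genes, or 0.0374%, were called at 18 h against 6 h, with 1413 at an unadjusted p below 0.05. At 6 h against 2 h, 1657 genes had such a p, so the few calls do not show that few genes moved. PNISR, a splicing-related gene, and SRSF5 were higher (2 genes, 0.015%, log2 changes 0.63 and 0.65), and SLC7A5, SLC3A2 and TINAGL1 were lower (3 genes, 0.0224%). The 5 calls became 20 without the 1 h library of replicate 1 and 1 when any of several single libraries were left out.

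**Figure D4:**
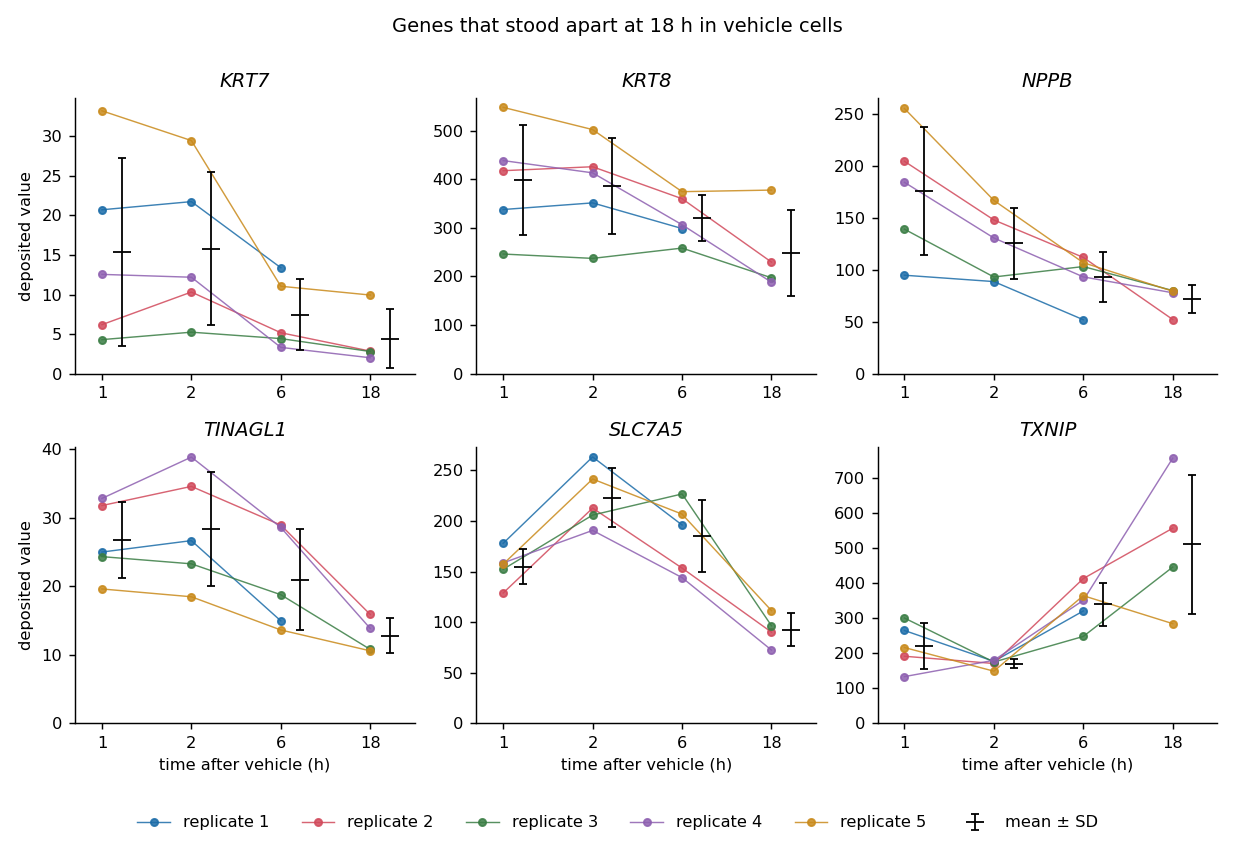
Deposited values of 6 genes in vehicle cells at 1, 2, 6 and 18 h, with a line for each replicate number and the mean ± SD beside the points. KRT7, KRT8, NPPB, TINAGL1 and SLC7A5 are lowest at 18 h and TXNIP is highest there, with replicate 5 nearest to the 1 h libraries for TXNIP and KRT7.

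The carbachol libraries gave the same direction for nearly all of these genes. Of the 80 genes higher at 6 h in vehicle cells, 65 (81.2%) were also called higher at 6 h against 1 h in carbachol cells, where 13.2% of tested genes were, and of the 104 lower 93 (89.4%) were called lower, where 11.4% of tested genes were. At 18 h it was 108 of 130 higher (83.1%, beside 15.8% of tested genes) and 77 of 87 lower (88.5%, beside 11.3%). Seen from the carbachol calls, which number 3292 at 6 h and 3623 at 18 h, these shared genes are 3.68% and 6.09% of those higher and lower at 6 h, and 5.12% and 5.09% at 18 h. 184 of 184 vehicle calls at 6 h and 216 of 217 at 18 h had the same sign, and 0 were called in opposite directions. The courses share no library, but they may share handling or a batch at each time. In replicate 5 the column sum was 1426180 at 1 h and 1052858 at 6 h in vehicle cells. In carbachol cells it was 1258333 and 1078094. The part of such shared differences in the overlap was not tested. The median log2 change of the vehicle calls was 0.49 in vehicle cells and 0.50 in carbachol cells for those higher at 6 h, and -0.59 and -0.66 for those lower. Scaled to equal sums without mitochondrially encoded genes, the carbachol split was 3375 higher and 687 lower at 6 h and 3982 and 703 at 18 h, against 1765 and 1527, and 2110 and 1513, as deposited. The carbachol counts fell to 286 and 123 without the replicate block and rose or fell with single replicate numbers left out, between 789 and 5445 at 6 h and between 938 and 4587 at 18 h.

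Most of the genes shown went the same way in carbachol cells. DBP (log2 change -0.86), CIART (-0.85), TEF (-0.64) and NR1D1 (-0.66) were called lower at 6 h there, NFIL3 was not called (0.21), and of these 4 none was called at 18 h. PNRC1 (0.68), CCNG2 (1.11), CDKN1B (0.52) and TXNIP (1.47) were higher and CCND1 (-0.84), NPPB (-1.48), TINAGL1 (-1.16), SLC7A5 (-0.60), KRT7 (-1.10) and KRT8 (-0.64) were lower at 18 h against 1 h in carbachol cells. SRSF5 fell by 0.82 at 6 h there. PER1 had the other sign: it fell at 18 h in carbachol cells (-0.60, limma adjusted p = 0.00559), against a log2 change of 0.52 in vehicle cells that was not called. The difference between these 2 changes, 1.12 ± 0.25 (SE, limma adjusted p = 0.173), was not called either. BTG2 was not called in carbachol cells (0.31 at 6 h and 0.34 at 18 h). Of the 23 immediate early genes 2 were called lower at 18 h in vehicle cells, where 0.651% of all tested genes were. In carbachol cells 16 were, where 11.3% of all tested genes were called lower, so the 2 counts cannot be compared directly.

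A direct test of the difference between the time courses called 3 genes at 18 h against 1 h, or 0.0224% of those tested, with 369 at an unadjusted p below 0.05. NR4A1 fell less in vehicle cells than in carbachol cells, by -0.71 against -3.08, a difference of 2.37 ± 0.27 on the log2 scale (SE, limma adjusted p = 2.68e-05). Its level at 18 h was 7.0 ± 1.96 in vehicle cells and 7.46 ± 1.91 in carbachol cells, while at 1 h it was 11.9 ± 3.24 in vehicle cells and 73.5 ± 31.9 in carbachol cells (SD, n = 4 vehicle at 18 h and 5 elsewhere). FOSB, an immediate early gene of the AP-1 family, differed by 2.13 ± 0.37 (limma adjusted p = 0.019), and DUSP5 by 0.98 ± 0.18 (adjusted p = 0.0382). For both the levels of the groups were alike at 18 h within their spread and stood apart at 1 h, where FOSB was at 0.69 to 1.83 in vehicle cells and 3.80 to 32.8 in carbachol cells, and DUSP5 at 24.0 to 36.3 and 43.6 to 67.1. For CCND1, HBEGF, MIDN, the keratins and the clock genes the difference was not called. It was not called either for EGR1, at 1.54 ± 0.82 (limma adjusted p = 0.997), or for CCN2, at 1.44 ± 0.35 (adjusted p = 0.375), and a p that misses the threshold does not show that the courses were alike.

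**Figure D5:**
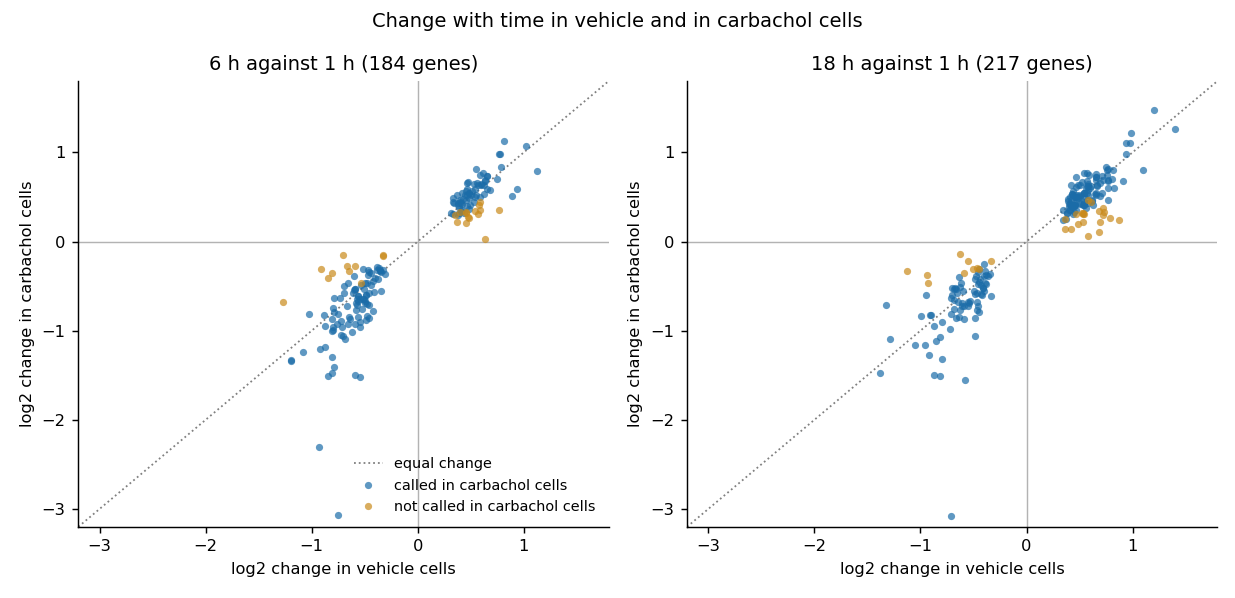
Log2 change against 1 h in carbachol cells (vertical) and in vehicle cells (horizontal) of the genes called in vehicle cells, 184 at 6 h (left) and 217 at 18 h (right). Blue points were also called in carbachol cells, orange points were not, and the dotted line marks equal change. The points lie in the quadrants of equal sign, except RNA5SP265 at 18 h (2.77 in vehicle and -1.19 in carbachol cells), which lies beyond the right edge and is not seen. NR4A1 lies lowest, at -3.06 at 6 h and -3.08 at 18 h on the vertical axis.

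Other lists had 0 members called, as lists of their size often would where 1.38% of tested genes were called at 6 h and 1.62% at 18 h. At 6 h and at 18 h, 0 members were called among 25 glycolysis and hypoxia genes, 10 replication-dependent histones, 21 autophagy and lysosome genes, 16 NRF2 targets, 6 metallothioneins, 25 cytosolic ribosomal protein genes, 24 nuclear oxidative phosphorylation genes and 17 integrins and laminins in the limma fit. Their medians at 6 h lay between -0.22 for the ribosomal proteins and 0.04 for autophagy. The ribosomal protein genes were negative in 25 of 25 at 6 h and 23 of 25 at 18 h, and the nuclear oxidative phosphorylation genes in 20 of 24 at both times. Of 21 interferon-stimulated genes STAT2 alone was called, at 18 h, and of 14 glucocorticoid targets KLF9 alone, lower at 6 h (-0.58) and at 18 h (-0.65).

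By position on GRCh38 (GENCODE 29), the genes with the most stable calls were scattered. NPPB lies at chr1:11857464-11858931, TINAGL1 at chr1:31576485-31587686, CCND1 at chr11:69641087-69654474, SRSF5 at chr14:69726900-69772005, SEMA7A at chr15:74409289-74433958, MIDN at chr19:1248553-1259140 and GPNMB at chr7:23235967-23275108. These are the 7 genes behind the 8 of 101 named calls that held in all 5 fits with a replicate number left out, MIDN at both times, SRSF5 at 6 h and the others at 18 h. Without the replicate block, 5 of the 101 held: P2RY11, SRSF5, HBEGF and GADD45A at 6 h and CCND1 at 18 h. P2RY11 overlaps PPAN, so reads from the overlap may be counted for either gene.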

How the data were processed

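RNA of BEAS-2B cells was sequenced with a TruSeq kit, per the labels' protocols. STAR 2.4.2a, bcl2fastq 2.17.1.14 and GRCh38 are named in the submitters' processing notes. No source used here gives the quantifier, its annotation or the use of strand. The deposited values were named TPM by the authors, but their columns do not add up as TPM must, so they were taken as a normalised signal deposited by the authors, with depth unknown. The planned test, on log2(value + 1), suits both.

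A column was given to the sample whose title it matched. 10 value columns were not used, among them those headed 8 h, a time no label gives. The vehicle column headed 8 h is of replicate 1 and may be the 18 h library of that replicate, which its heading does not settle. Of 29273 genes, the 13369 at 1 or more in at least 4 vehicle libraries were tested with limma 3.58.1 in R 4.3.3, with time and replicate number as terms, all 4 times in 1 fit per treatment, eBayes with a mean-variance trend and Benjamini-Hochberg adjustment. The script was tested on simulated data.

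Replicate numbers come from sample titles, and nothing says what a number stands for. Same-numbered vehicle libraries had correlations of deviations from the group means between -0.23 and 0.85 (median 0.30, n = 27), against a median of -0.02 for other pairs, so not every pair passed 0.1. The block was kept because the comparison was set up by replicate number.

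Named genes were the 12 largest rises and falls among genes called with a mean of at least 5 and every pair in the same direction, up to 4 members per list by absolute log2 change, and all tested clock genes. The members and the gene lists were chosen with earlier results of these data known. Gene coordinates are from GENCODE 29 and promoter sequences from RefSeq (GRCh38.p14). Results for some genes are not reported here.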

Additional observations from a re-analysis of the deposited data

Results flagged for a closer look

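A library far from the others of its time was looked for in 168 groups of 4 or 5 libraries, made of the values of the genes shown, the library score, the column sums, the genes at 1 or more and the mitochondrial share. 16 groups had a highest or lowest library whose gap to the next was above Dixon's 95% limit, where chance alone gives about 1 in 20.

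Replicate 5 was the library apart in 11 of them. At 1 h it had MT-ND1 at 8824, against 3297 to 4722 in the others, and a column sum of 1426180, against 911107 to 1013762. At 2 h it had FBXO31 at 9.71 (others 14.0 to 15.0), DBP at 21.3 (8.58 to 12.2), CCNG2 at 9.83 (27.9 to 33.9) and PNRC1 at 29.9 (47.0 to 52.4). At 18 h it had BDNF at 11.6 (12.8 to 12.9), SLC3A2 at 147 (87.5 to 97.1), KRT7 at 9.94 (2.02 to 2.86), SEMA7A at 3.41 (4.66 to 4.87) and a column sum of 1251034, against 928977 to 951362.

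The other libraries apart were replicate 4 at 18 h for PER1, at 32.6 (24.4 to 25.5), and for CCND1, at 15.9 (19.33 to 20.04), replicate 3 for CDKN1B at 6 h, at 137 (93.0 to 102), and for GPNMB at 18 h, at 94.7 (61.7 to 65.8), and replicate 2 at 18 h for NPPB, at 52.3 (78.0 to 80.1).

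The change from 1 h to 18 h differed between vehicle and carbachol cells, by limma's test of the difference, for NR4A1 (2.37 on the log2 scale), FOSB (2.13) and DUSP5 (0.98). All 3 fell less in vehicle cells, where their 1 h levels were lower.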

How the results depend on the processing

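The counts of called genes moved under many settings, while 0 of the 101 calls of named genes reversed direction. With median-ratio scaling the split at 18 h turned, to 81 higher and 133 lower in place of 130 and 87 in vehicle cells, and to 1731 and 1871 in place of 2110 and 1513 in carbachol cells. Without the replicate block, limma called 0 genes at 2 h, 8 at 6 h and 1 at 18 h against 1 h, in place of 3, 184 and 217, and 14 at 6 h against 2 h, 1 at 18 h against 6 h, 286 and 123 in carbachol cells at 6 and 18 h, and 1 for the difference between vehicle and carbachol cells. The labels do not establish a pairing by replicate number, and same-numbered vehicle libraries correlated at -0.23 to 0.85, with a median of 0.30. Calls made only with the block therefore rest on a pairing that is not established. With no filter on low values the counts were 98 at 6 h, 59 at 18 h, 2 at 18 h against 6 h and 1 for the difference. Scaled to equal sums without mitochondrially encoded genes, they were 1 at 2 h, 231 at 6 h, 124 at 18 h and 57 at 6 h against 2 h, and the median log2 change of all genes was then 0.097 at 6 h and 0.0853 at 18 h, in place of 0.00 and 0.05, and 0.12 and 0.16 in carbachol cells. With no mean-variance trend 1 gene was called at 18 h against 6 h. When each fit held only its own times, limma called 0 genes at 2 h, 32 at 6 h, 7 at 18 h, 0 at 18 h against 6 h, 235 and 1409 in carbachol cells at 6 and 18 h, and 1 for the difference. With the mitochondrial share as a covariate, they were 10, 32, 208, 30 and 1 for 2 h, 6 h, 18 h, 6 h against 2 h and 18 h against 6 h, and 1317 and 1395 in carbachol cells. Without libraries over 20% mitochondrial, which are all carbachol libraries, 1977 genes were called at 6 h. The cause was not tested for any of these.

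Leaving out a replicate number gave 0 to 7 genes at 2 h, 4 to 656 at 6 h, 12 to 459 at 18 h, 18 to 64 at 6 h against 2 h, 1 to 8 at 18 h against 6 h, 789 to 5445 and 938 to 4587 in carbachol cells at 6 and 18 h, and 1 to 2 for the difference. Leaving out single vehicle libraries, chosen after seeing the data, gave 0 to 17, 40 to 1201, 21 to 705, 31 to 159, 1 to 20 and 1 to 4 in the same order without the carbachol counts. Of 101 calls of named genes, 101 held with a pseudocount of 0.1, 98 with median-ratio scaling, 96 of 96 at a mean of at least 5, 83 with no trend, 76 with equal sums, 52 with the covariate, 32 with no filter, 25 with only the times compared and 5 without the block. Depth is unknown, so no counting error can be given.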

Other observations

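Zinc finger genes, a family chosen after their values were seen, leaned upwards at 18 h. The family was taken as the 481 tested genes whose symbols begin with ZNF and a digit, ZKSCAN or ZSCAN. Of these, 13 were called higher and 2 lower at 18 h against 1 h in vehicle cells. In all, 355 of them had a positive log2 change, with a median of 0.15 beside 0.05 over all genes. Over all tested genes 0.972% were called higher and 0.651% lower, and that balance turned with median-ratio scaling, to 81 higher and 133 lower. At 6 h 2 were called higher and 3 lower, with a median of 0.01. In carbachol cells at 18 h, 101 were called higher and 19 lower, with a median of 0.19.

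Among other genes called higher at 18 h were TIA1, an RNA-binding protein of stress granules (log2 change 0.77), CAPN6, a calpain gene (1.10), DNAJC6, the gene of the clathrin uncoating factor auxilin (0.99), and SPICE1, a centriole duplication gene (0.83).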
